A study of Sus scrofa with 2 samples.

Results

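The cytosolic ribosomal protein genes were followed in single cells of pig skin that were profiled either fresh or after freezing. They were taken by a rule on the gene symbol, set with earlier results of these data known. It covers every gene whose symbol starts with RPL or RPS and a digit, together with RPSA, leaving out the RPS6K kinases. This rule took 55 of the 31908 genes that the count tables list. Of these, 49 are components of the ribosome and 6 are paralogs of a component (RPL3L, RPL7L1, RPL10L, RPL26L1, RPL36AL and RPS27L). Other ribosomal protein genes lie outside the rule, among them RPLP0, RPLP1, RPLP2 and 7 that the gene table lists only by identifier. Shares given below are those of the 55 genes, called members, and not of all ribosomal protein genes.

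The cells came from dorsal skin of male farm pigs, were dissociated with an enzyme kit and were sorted by FACS to remove dead cells before droplet sequencing with a 10x Genomics 3′ kit. The fresh library received no treatment, and the cells of the cryopreserved library had been frozen in 90% FBS + 10% DMSO, kept in liquid nitrogen and thawed. The extraction protocol attached to both samples describes the freezing step, and the title and treatment labels are what separate the fresh sample. Each condition is 1 library, and neither the number of animals behind a library nor whether both came from the same animal is stated. No difference between the conditions was therefore tested, and every interval given covers counting error only.

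The tables count unique molecular identifiers (UMIs), so that PCR copies of a transcript count once. After the study's maxima of 4500 genes, 30000 UMIs and 10% mitochondrial UMIs per cell, the fresh library held 2775 cells with 32274985 UMIs and the cryopreserved library 4223 cells with 36687009 UMIs. Both libraries shared 5 cell barcodes. The clusters of cells were named from marker genes as 9 classes, and the unnamed cluster of 3 fresh and 22 cryopreserved cells is described at the end. Each class rests on at least 5 raised markers in each of its clusters, such as COL1A1, DCN and LUM in fibroblast-like cells and CD3D and CD3E in T or NK-like cells. Some clusters also raised markers of another class. The Langerhans or other dendritic-like cluster raised 6 CD163/CD209 myeloid markers, the lymphatic-like cluster 6 endothelial markers and an SMC-like cluster 5 fibroblast markers. The smaller CD163/CD209 myeloid-like cluster did not raise CD209.

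The ribosome translates mRNA into protein, and its small (RPS) and large (RPL) subunits are built from ribosomal RNA and about equal amounts of each protein. Most of the protein genes are transcribed at a high rate in every cell, and their mRNAs carry a run of pyrimidines at the 5′ end, the TOP motif, through which growth signalling by mTOR sets their translation together. In skin, dividing and growing keratinocytes need many ribosomes.

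RefSeq transcripts on Sscrofa11.1, the build to which the study's reads were mapped, were found for 54 of the 55 members by symbol. RPL36A-HNRNPH2 had no entry under its name, and RPL18 had more than 1. The members lie on 16 chromosomes, and the mRNAs of the matched components are short, with a median of 629 bases against 2639 over 19560 protein-coding genes. A pyrimidine run, taken as a C followed by at least 4 bases that are C or T on the transcribed strand, could be read from the annotated first base on in 12 of 54 members (22.2%) and in 2.97% of the 19560 genes, whether or not the pyrimidines also extended upstream of that base. A run began within 10 bases of the first base in 27 of 54 members and in 5874 of the 19560 genes (30.03%). A match here is a match of letters at an annotated start and not a mapped site.

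The start sites of 4 members from the low end and of the 5 members at the high end of the cryopreserved-to-fresh ratios are shown, because the comparison turns on them. Each run holds 10 bases before the annotated first base and 20 bases from it on, read 5′ to 3′ on the gene's strand, with the first pyrimidine run in capitals. The 4 from the low end come first.
RPS20: tcacgCCTTCCTCTTTgaagaagacgcagc
RPL7: gcgctaaCTTCCTCTTTCCCggctggaacc
RPS16: agCTCTTgtctaatctgcagccatgccttc
RPL31: gtcacagCCTCTCCCCCCgcccacccttcc
RPS28: gtgaCTCCTCTCCgccagaccaccgccgcg
RPL26L1: cctcaCTTCCggccctgagcagcgcatcgt
RPL6: ggccttagttCTCTTTCCCatcttgcaagg
RPL35A: gaggtgagtttagctctggcagctgaactt
RPL27A: cacacacacacacagactaactgatggact

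RPS20 (chr4:75762199-75762228, plus strand) and RPL7 (chr4:62602420-62602449, plus strand) share the letters CTTCCTCTTT within their runs, which lie over the first base. RPL35A (chr13:134588357-134588386, plus strand) and RPL27A (chr9:712391-712420, minus strand) had no run in this window. RPS16 lies at chr6:48088349-48088378 on the minus strand, RPL31 at chr3:53295368-53295397 on the minus strand and RPS28 at chr2:70954753-70954782 on the minus strand. RPL26L1 lies at chr16:51276673-51276702 on the minus strand and RPL6 at chr14:39302437-39302466 on the plus strand. Runs therefore occur both among the members with the lowest and among those with the highest ratios. The runs of RPS16 and RPL26L1 end before the annotated first base, and those of RPS20, RPL7, RPL31, RPS28 and RPL6 cover it. Over the 52 members with a transcript and enough UMIs, the median log2 ratio was 0.11 in the 26 with a run and 0.25 in the 26 without. A run here begins within 10 bases of the first base, and some end before it.

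The members together took 1736587 of the fresh UMIs, or 5.38% (exact 95% binomial interval 5.37 to 5.39%), and 2138733 of the cryopreserved UMIs, or 5.83% (interval 5.82 to 5.84%). The share was 1.08 times as high in the cryopreserved library (interval 1.081 to 1.086). The median cell spent 4.34% of its UMIs on the members when fresh and 4.74% when cryopreserved. Thinned to 1000 UMIs a cell, which left out 27 fresh and 32 cryopreserved cells, the medians were 4.30% and 4.80%. The make-up of the libraries moved with this ratio: keratinocyte-like cells, the class with the highest share, made up 19.1% of the cells when fresh and 25.1% when cryopreserved. With the class shares of the fresh library applied to both, the ratio was 1.02.

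The share differed more between cell classes than between libraries. Keratinocyte-like cells had the highest share, 8.45% when fresh and 8.05% when cryopreserved. T or NK-like cells followed with 6.91% and 7.67%, and Langerhans or other dendritic-like cells with 7.20% and 7.16%. T or NK-like and Langerhans or other dendritic-like cells thus changed places between the libraries. CD163/CD209 myeloid-like cells had 4.84% and 5.40%, mast-like cells 4.89% and 5.13%, and lymphatic-like cells 4.34% and 4.82%. Fibroblast-like cells, the most numerous class, had 4.05% and 4.48%, SMC-like cells (smooth muscle markers such as ACTA2 and MYH11) 4.07% and 4.02%, and endothelial-like cells 3.499% and 3.918%. The highest class exceeded the lowest by 2.42 times when fresh and by 2.055 times when cryopreserved, with keratinocyte-like and endothelial-like cells at the ends in both.

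**Figure D1:**
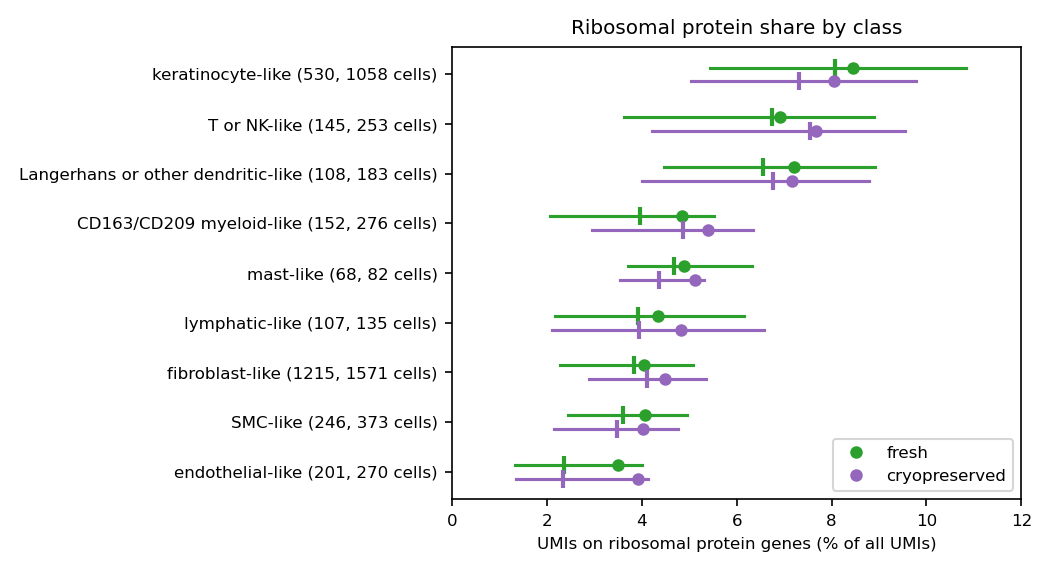
Share of UMIs on the 55 members (x axis, % of all UMIs) in the 9 classes, fresh in green and cryopreserved in purple. Circles are the share of the pooled UMIs, ticks the median cell and lines the quartiles over cells. Keratinocyte-like cells lie highest (8.45% and 8.05%) and endothelial-like cells lowest (3.499% and 3.918%).

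Within classes the libraries differed in both directions. In 6 of 9 classes the members took a larger share of the pooled UMIs after freezing, at 1.05 times the fresh share in mast-like (interval 1.02 to 1.07) up to 1.12 times in endothelial-like cells (interval 1.11 to 1.13). It was lower in keratinocyte-like cells (ratio 0.953, interval 0.9496 to 0.9557) and in SMC-like cells (0.989, interval 0.979 to 0.999). In Langerhans or other dendritic-like cells the ratio was 0.994, with an interval of 0.986 to 1.002 that holds 1. By the median cell 5 of 9 classes were higher, and not all of them were the same classes. The median fell in mast-like (4.68% to 4.36%) and, slightly, in endothelial-like cells (2.35% to 2.33%). It rose in Langerhans or other dendritic-like cells (6.55% to 6.76%). The median number of UMIs per cell moved with the library in every class, from 14856.5 to 9697 in keratinocyte-like and from 2750.5 to 2438.5 in mast-like cells, and its part in these ratios was not tested.

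Among the keratinocyte-like cells, the cluster led by KRT1, KRTDAP and KRT10, keratins and partners of the suprabasal layers, had 10.4% over 87 fresh cells, the highest share of the 5 clusters when fresh, and 9.19% over 157 cryopreserved cells. The cluster led by KRT15 and KRT5, basal keratins, had 8.60% and 7.97% over 125 and 221 cells. The cluster in which DSG3 and MACC1 led was the only one of the 5 with a higher share after freezing, 8.73% and 9.25% over 103 and 237 cells, and lay highest of the 5 when cryopreserved. The cluster led by CCL27 and SERPINB2 had 7.40% and 7.11% over 193 and 371 cells. The cluster with raised division genes had 7.36% and 7.06% over 22 and 72 cells. Among the filtered cells, the dividing cluster, the smallest of the 5, therefore did not stand above the others in the share of UMIs on the members. Barcodes over the gene or UMI maximum, with pooled shares of 6.38% and 7.10%, were not part of these clusters. The fibroblast-like clusters also differed in direction. The cluster led by MYOC and FGF10 had 4.18% when fresh and 5.25% when cryopreserved. Those led by CPZ and COL1A2 (3.65% and 3.54%) and by CCL19 and LUM (4.05% and 3.89%) were lower after freezing. The other fibroblast-like clusters were higher.

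For single members, UMIs were summed over the filtered cells of a library and scaled to CPM, the UMIs of a gene per 1000000 UMIs of the library, with edgeR's TMM factors. The level of a gene in this 3′ assay does not scale with its length, but reads that also match a near-identical copy can be lost or split, so levels of different members are compared loosely. The last 300 bases of the transcript had at least 1 other match in the genome (at least 95% identity over at least 90% of the bases) in 18 of 54 members, up to 5 for RPS23. For RPS20 there was 1 such match at 97.3% identity, in an annotated pseudogene, and for RPL7, RPS28 and RPL6 there was none. The members with a copy had a median log2 ratio of 0.15 (18 members) and those without 0.20 (34 members).

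The most abundant members were RPL10, a large-subunit protein next to the peptidyl transferase centre (3076 CPM fresh and 2784 CPM cryopreserved), and RPS12 of the small subunit (2360 and 3071 CPM). RPL27A had 1720 and 2363 CPM, RPL37 1728 and 2318 CPM, and RPL11, which joins the 5S RNA particle and binds MDM2, 1722 and 2283 CPM. These 5 took 19.98% of the member UMIs when fresh and 21.7% when cryopreserved. The mean level of the 49 components ran from 46.9 CPM (RPL10A) to 2930 CPM, with a median of 1020 CPM.

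At least 200 UMIs over both libraries were found for 53 of the 55 members and for 11692 genes in all. Taken as the cryopreserved CPM over the fresh CPM, the log2 ratio exceeded 0 in 37 of the 53 members and lay below 0 in 16, while it exceeded 0 in 53.55% of all genes. Its median was 0.20 over the members, with quartiles at -0.09 and 0.37, and 0.03 over all genes, with quartiles at -0.19 and 0.27. The members' median was 0.11 over all barcodes and 0.10 with the class shares of the fresh library. The large subunit (30 members, median 0.22, 22 above 0) and the small subunit (23 members, median 0.20, 15 above 0) had near values. A ratio of at least 0.5 on the log2 scale, the size used here to single out genes, was passed upward by 3 of 53 members and by 8.29% of all genes. It was passed downward by 3 of 53 members and by 4.86% of all genes.

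**Figure D2:**
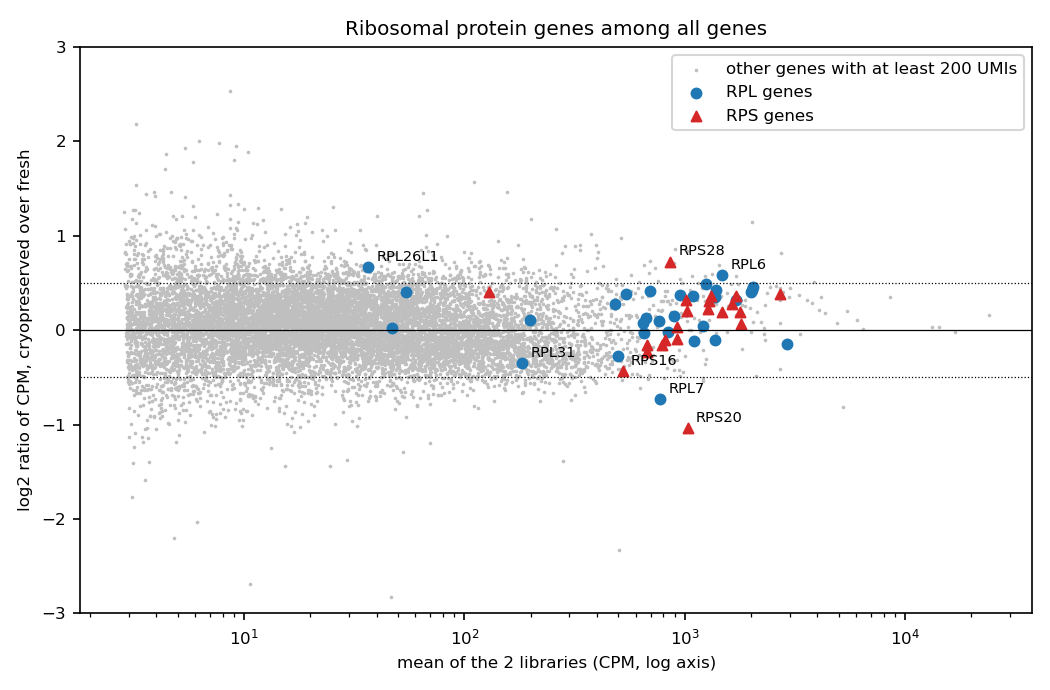
Mean CPM of both libraries (x axis, log scale) against the log2 ratio of CPM, cryopreserved over fresh, for the genes with at least 200 UMIs (grey) and for 51 members, RPL as blue circles and RPS as red triangles. Dotted lines mark 0.5 either way, and 4 other genes lie beyond the axis limits of 3. Most members lie between the dotted lines, RPS20 lies lowest of the members at -1.03 and RPS28 highest at 0.73.

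RPS20, a protein of the head of the small subunit, had the lowest ratio. It had 45352 UMIs when fresh and 24506 when cryopreserved, which come to 1387 and 677 CPM and a log2 ratio of -1.03 (interval -1.06 to -1.01). Only 0.26% of all genes lay at or below this ratio. RPL7, a large-subunit protein, had 964 and 582 CPM and a ratio of -0.73 (interval -0.75 to -0.70). RPS16, whose tail reaches the tRNA in the small subunit, had 602 and 444 CPM and RPL31, at the exit of the peptide tunnel, 205 and 161 CPM. The ratios of these last members, -0.44 and -0.35, did not reach the size of 0.5.

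RPS28, a small-subunit protein near the mRNA exit, had the highest ratio. It had 648 CPM when fresh and 1072 CPM when cryopreserved, a log2 ratio of 0.73 (interval 0.70 to 0.75), and 97.5% of all genes lay at or below it. RPL26L1, a paralog of RPL26 with 923 and 1620 UMIs, had a ratio of 0.67 (interval 0.55 to 0.78). RPL6 of the large subunit had 1188 and 1778 CPM and a ratio of 0.58 (interval 0.56 to 0.60). RPL35A, a gene mutated in some families with Diamond-Blackfan anaemia, had 1036 and 1454 CPM and RPL27A 1720 and 2363 CPM, with ratios of 0.49 and 0.46. No single cell held more than 0.65% of a member's UMIs in either library over the 53 members.

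RPSA, which is part of the small subunit and is also known as the laminin receptor, had 902 and 1126 CPM, a log2 ratio of 0.32 (interval 0.30 to 0.34). The other paralogs were far less abundant than most components. RPS27L, a target of p53, had 111 and 147 CPM (ratio 0.40), RPL7L1, which acts in the maturation of the large subunit, 46.8 and 62.1 CPM (0.41), and RPL36AL 191 and 206 CPM (0.11). The parents that are members had ratios of 0.05 (RPL26, but -0.0041 over all barcodes), -0.73 (RPL7), -0.14 (RPL10), -0.02 (RPL3) and 0.38 (RPL36A-HNRNPH2). RPS27, the parent of RPS27L, is not among the members. RPL26L1 and RPL7L1 thus lay above their parents and RPL36AL below its parent, with intervals that did not overlap. The symbol RPL36A-HNRNPH2 joins the names RPL36A and HNRNPH2, and which of them its UMIs came from was not examined. RPL3L, the striated muscle form of RPL3, had 29 fresh and 52 cryopreserved UMIs, of which 1 cell held 31.0% and 40.4%, and RPL10L, a copy known from testis, had 0 and 4 UMIs.

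The ratios of the leading members were also read class by class, with CPM scaled to the total of each class. These members were picked by the ratio over the same cells, so their class ratios are parts of that value and not a separate test. For RPS20, 9 of 9 classes had a lower level after freezing. The difference was smallest in endothelial-like cells, with 1015 and 637 CPM (log2 ratio -0.67, interval -0.80 to -0.55), and largest in Langerhans or other dendritic-like cells, with 1997 and 740 CPM (ratio -1.43, interval -1.52 to -1.34). In fibroblast-like cells it had 1295 and 581 CPM, in keratinocyte-like cells 1791 and 886 CPM and in T or NK-like cells 1509 and 648 CPM. In mast-like cells, the smallest class, it had 692 and 428 CPM from 178 and 116 UMIs. RPL7 had class ratios from -1.22 in mast-like to -0.50 in lymphatic-like cells. RPS28 was higher in 9 of 9 classes, from 0.48 in SMC-like to 0.77 in mast-like cells, and RPL6 from 0.20 in mast-like to 0.69 in CD163/CD209 myeloid-like cells.

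Over the 42 members with at least 200 UMIs in each of the 9 classes, 9 were lower in every class, as were 19.4% of the 279 genes that met the same minimum. RPS20, RPL7, RPL21, RPS13, RPS9, RPL35, RPS3 and RPL10 were among these. Higher in every class were 16 of the 42 members, against 26.5% of the 279 genes. RPS28, RPL6, RPL27A, RPL35A and RPL37 were among them. When each class was centred on the median ratio of all its genes, the members lower in every class were 4, among them RPS20, RPL7 and RPL35, against 13.98% of the 279 genes, and 16 were higher, against 28.3%. The classes of 1 library share its preparation and are not replicates of a condition.

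**Figure D3:**
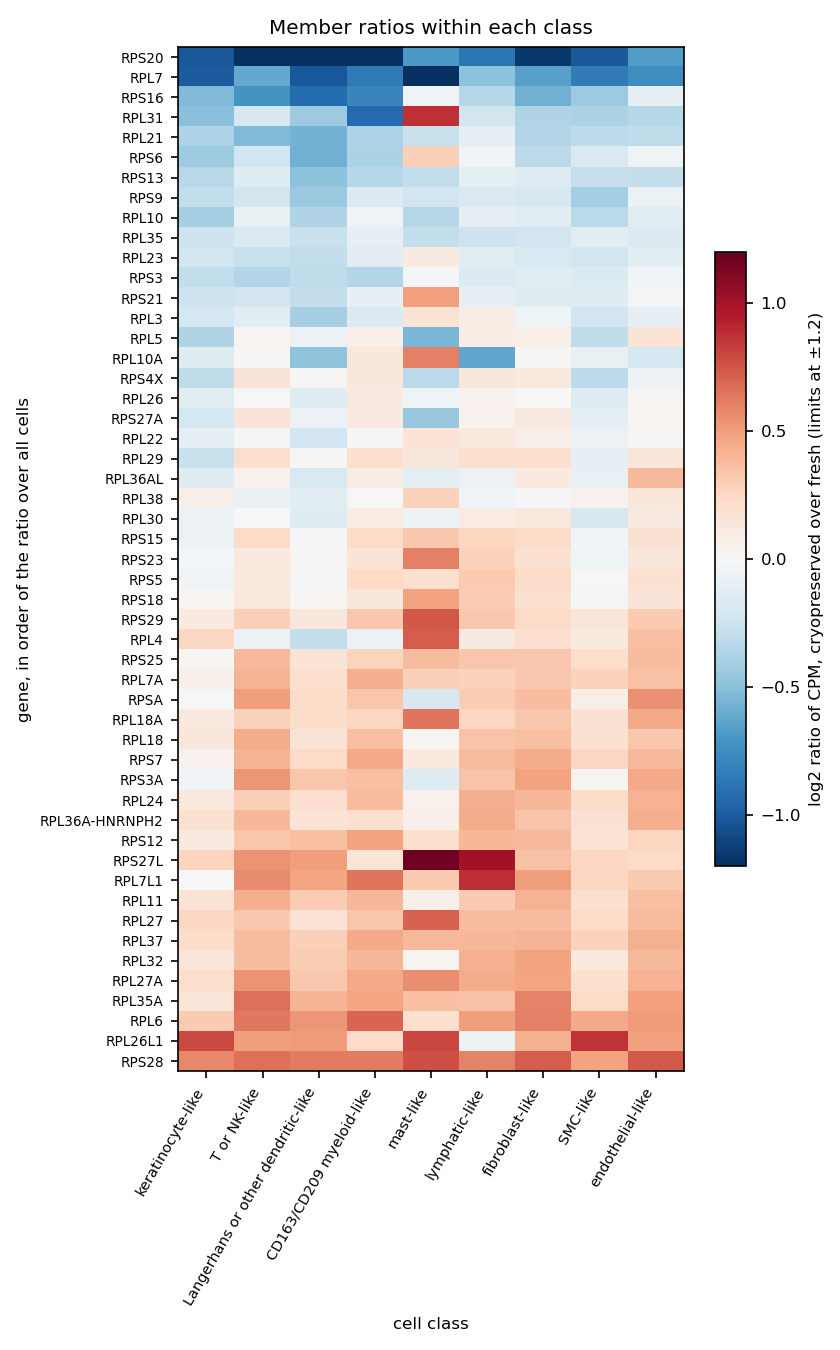
Log2 ratio of CPM, cryopreserved over fresh, of 51 members with at least 200 UMIs (rows, in order of the ratio over all cells) in the 9 classes (columns). Blue is lower and red higher in the cryopreserved library, with colours saturated at 1.2 either way. The first rows, RPS20 and RPL7, are blue in every class and the last, RPS28, is red in every class.

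Class by class, the centre of the members' ratios differed. The median log2 ratio of the members ran from -0.03 in keratinocyte-like cells (25 of 53 members above 0) to 0.22 in lymphatic-like cells (33 of 48 above 0). Over all genes of these classes the medians were 0.02 and -0.13. RPL31 was lower in 8 of 9 classes and had a ratio of 0.88 in mast-like cells, where it rested on 30 and 58 UMIs (interval 0.22 to 1.56). RPSA was lower in mast-like cells alone (-0.19, interval -0.45 to 0.07) and highest in endothelial-like cells (0.55, interval 0.40 to 0.70).

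As a part of the member UMIs of each class, which takes the overall share out of the comparison, RPL7 took 1.42 to 2.45% in the 9 fresh classes and 0.757 to 1.11% in the 9 cryopreserved classes. RPL27A took 3.11 to 3.48% in the fresh and 3.72 to 4.63% in the cryopreserved classes. For both genes the ranges of both libraries did not overlap on this scale. They were picked from the 5 lowest and the 5 highest ratios over the same cells, so this is not a separate test. For most members the ranges overlapped on this scale. The scale is defined by the member UMIs, and a share over all genes was not computed on it. RPS20 took 1.41 to 3.20% in the fresh and 0.834 to 1.63% in the cryopreserved classes, so that the lowest fresh class, mast-like, lay below the highest cryopreserved class, endothelial-like. On the CPM scale the class ranges overlapped for every one of the 42 members, and only 0.358% of the 279 genes had cryopreserved class levels that were all below the fresh ones.

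**Figure D4:**
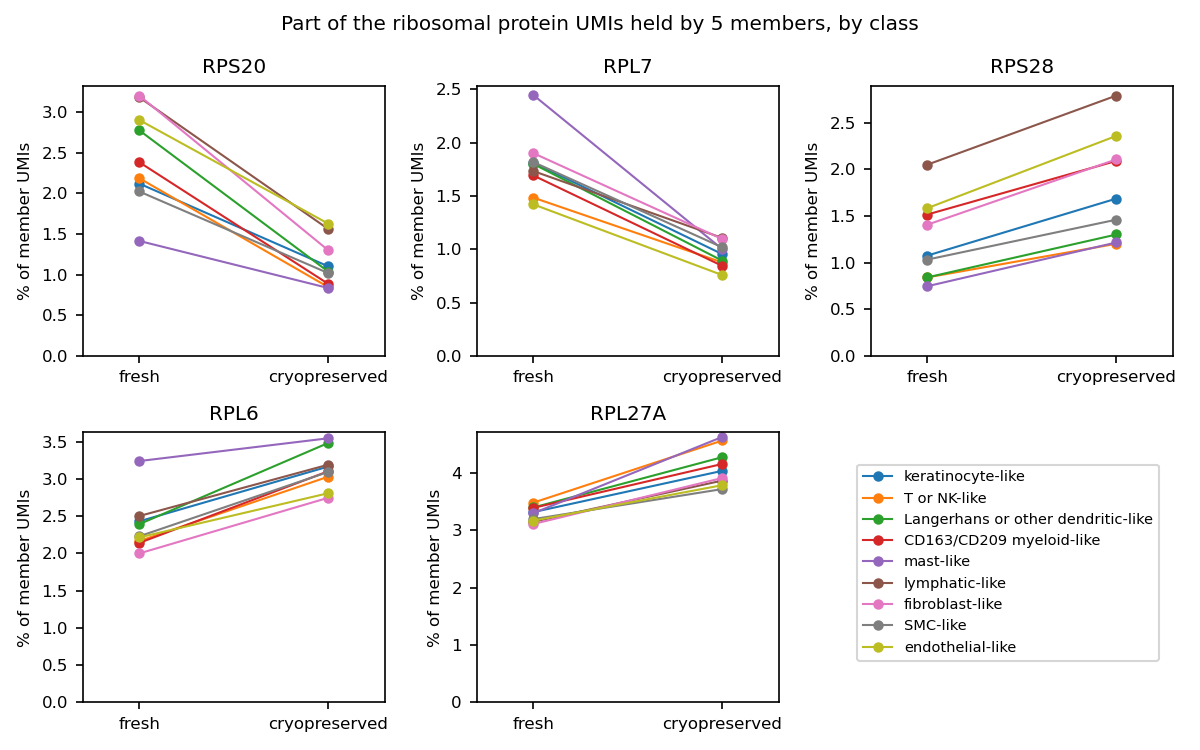
Part of a class's member UMIs (y axis, %) held by RPS20, RPL7, RPS28, RPL6 and RPL27A in the fresh and the cryopreserved library, with 1 line per class. Lines of RPS20 and RPL7 run down and lines of the other genes run up in every class. The ranges of RPL7 and RPL27A do not overlap between libraries on this scale, while on the CPM scale they do.

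The make-up of the member UMIs also differed between classes within both libraries. Over the 47 members with at least 50 UMIs expected in every class, the log2 fold between the class with the highest and the one with the lowest part had a median of 0.64 and was at least 0.22. RPL4, which lines the peptide tunnel, took 1.15% (fresh) and 1.26% (cryopreserved) of the member UMIs in SMC-like and 0.373% and 0.590% in mast-like cells. RPS28 took 2.05% and 2.79% in lymphatic-like and 0.747% and 1.22% in mast-like cells, and RPS3, at the mRNA entry, 2.135% and 1.72% in lymphatic-like and 0.810% and 0.762% in mast-like cells. RPS3A ran the other way, with 4.67% and 4.01% in mast-like and 2.02% and 2.09% in SMC-like cells. In each of these 4 members 1 end of the range was the mast-like class, the class with the fewest UMIs (257353 and 271121).

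Cells with hardly any UMIs on the members were more frequent in the fresh library. Fewer than 1% of the UMIs lay on the members in 262 of 2775 fresh cells (9.44%, exact 95% binomial interval 8.38 to 10.6%) and in 156 of 4223 cryopreserved cells (3.69%, interval 3.15 to 4.31%). Below 0.5% the numbers were 149 (5.37%) and 28 (0.663%). Thinned to 1000 UMIs, the share of cells under 1% was 9.10% when fresh and 3.75% when cryopreserved. Thinning keeps a cell's expected share, so these values do not address the difference in depth between cells. The limit of 1% cuts a continuous range and does not define a cell type.

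**Figure D5:**
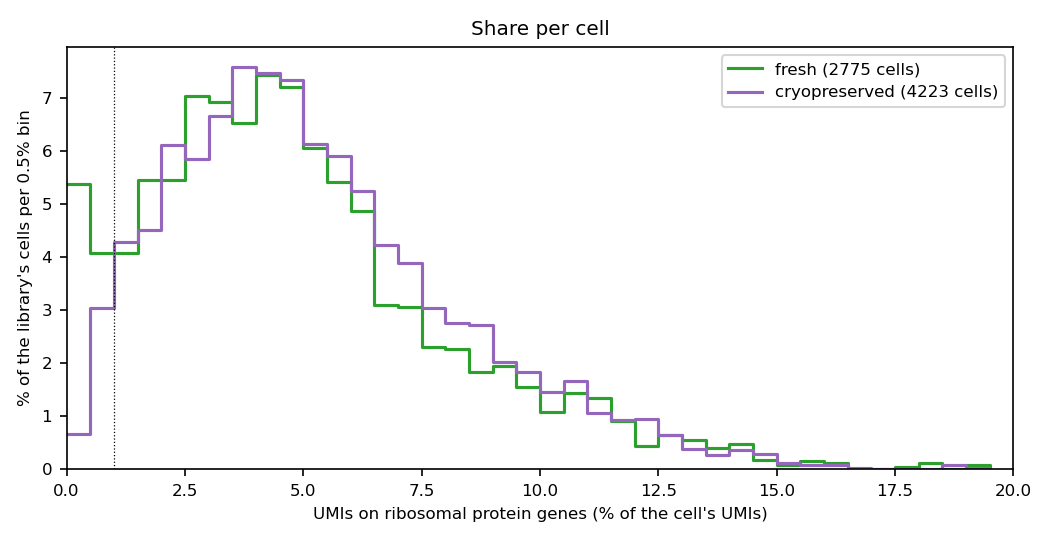
Distribution over cells of the share of UMIs on the 55 members (x axis, % of the cell's UMIs, up to 20) as the percentage of the library's cells per bin of 0.5% (y axis), fresh in green and cryopreserved in purple. The lowest bin holds 5.37% of cells when fresh and 0.663% when cryopreserved, and the dotted line marks 1%.

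The fibroblast-like class held most of the low-share cells of the fresh library, 149 of 1215 cells (12.3%, interval 10.5 to 14.2%), and 44 of 1571 cells in the cryopreserved library (2.80%, interval 2.04 to 3.74%). In keratinocyte-like cells the shares were 6.79% and 1.98%, and in CD163/CD209 myeloid-like cells 8.55% and 2.90%. In T or NK-like cells they were 7.59% and 2.37%. Endothelial-like cells had similar shares in both libraries, 17.4% (interval 12.4 to 23.4%) and 15.9% (interval 11.8 to 20.85%), and SMC-like cells 4.47% and 5.90%. Low-share cells were also not more frequent when fresh in lymphatic-like cells (4.67% and 5.93%) and in Langerhans or other dendritic-like cells (0 of 108 and 4 of 183). Mast-like cells had 0 of 68 and 0 of 82, where the exact intervals reach 5.28% and 4.40%. Low-share cells were shallower than the other cells, with a median of 6568.5 against 11831 UMIs when fresh and 3509 against 8153 UMIs when cryopreserved. Their median mitochondrial share was 4.85% against 3.415% when fresh and 6.08% against 3.42% when cryopreserved, and the part of depth and of mitochondrial UMIs in the low shares was not tested.

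A few other genes, chosen after their values were seen, were read in the fibroblast-like low-share cells of the fresh library. COL1A1, the main fibrillar collagen of the dermis, had 5316 CPM in them and 49800 CPM in the other fibroblast-like cells, and TPT1, another TOP mRNA, had 337 and 2838 CPM. XYLT1 and SLIT2 were higher in the low-share cells, with 4686 against 2209 CPM and 4190 against 1904 CPM. In the cryopreserved library COL1A1 had 36950 CPM in the 44 low-share cells and 55580 CPM in the others, and XYLT1 had 2694 and 1635 CPM. COL1A2 had 14650 and 36800 CPM there and COL3A1 8656 and 29400 CPM. When fresh, COL1A2 had 3045 CPM in the low-share cells and 37250 CPM in the others, and COL3A1 1732 and 28700 CPM. The heat shock gene HSP70.2 had 2504 and 3036 CPM when fresh and 9096 and 2329 CPM when cryopreserved, so that the low-share cells of the libraries did not have the same profile.

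The barcodes that the mitochondrial limit removed lay at the low end too. They numbered 1004 when fresh and 446 when cryopreserved and had a median of 0.890% and 1.655% of their UMIs on the members. The barcodes over the gene or UMI maximum, 600 and 191, had medians of 5.57% and 6.68%. Over all barcodes the pooled shares were 5.59% and 5.90%.

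The unnamed cluster held 20 of the 21 cryopreserved and 1 of the 4 fresh cells with more than 20% of their UMIs on the members. In 20 of its 22 cryopreserved barcodes 25.9 to 47.15% of the UMIs lay on the members, with a median of 39.3%, and 1 of its 3 fresh barcodes had 26.2%. The other fresh barcodes of the cluster had 0.112 and 0.154%, and the other cryopreserved ones 1.65 and 2.20%. The 20 barcodes had 568 to 2642 UMIs, 305 to 593 genes and at most 0.174% mitochondrial UMIs, where the median cell of the library had 3.49%. Their members did not follow the make-up of the other cells. RPL30 took 6.57% of their member UMIs against 1.56% in the named classes, RPS3 4.59% against 1.305% and RPS18 5.35% against 2.32%, while RPL10A, RPL7L1, RPL26L1 and RPS27L had 0 UMIs in the 20 barcodes. The 4 UMIs of RPL10L in the cryopreserved library were all found there. HBB, CD3E, VWF and KIT had 0 UMIs in them, COL1A1 439 CPM against 25020 CPM in the named classes, and PTPRC, the pan-leukocyte gene, 176 against 99.5 CPM, from 6 UMIs in 4 of the barcodes. HBB was nevertheless a raised marker of the cluster as a whole, so its UMIs lay in the cluster's other barcodes. The 20 barcodes held 0.626% of the library's member UMIs, and the share ratio between the libraries was 1.08 without the cluster.

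The genes around the ribosome were read from lists of related functions. Of the stalk proteins that the symbol rule does not take, RPLP1 had a log2 ratio of 0.35, RPLP0 0.27 and RPLP2 -0.14, and FAU, whose product carries RPS30, had 0.93 from 187 and 395 UMIs. Of 13 listed elongation factors and other TOP genes, 11 were found by symbol, EEF1A1 and NACA not among them. All 11 had enough UMIs. Of these, 7 were above 0, none reached 0.5 either way and the median was 0.07. TPT1 was lowest (3096 and 2328 CPM, ratio -0.41) and HNRNPA1 highest (0.50, just under the size used). TPT1, RACK1 (ratio -0.15) and EEF1B2, a subunit of elongation factor 1 (ratio -0.29), were lower in 9 of 9 classes. HNRNPA1 was higher in 9 of 9. Among the 279 genes with at least 200 UMIs in each class, 19.4% were lower and 26.5% higher in every class. Among 46 initiation factors, their kinases and their binding proteins such as EIF4EBP1, 35 were above 0, with a median of 0.12 and 2 higher by at least 0.5. EIF3B (ratio 0.57) and EIF4EBP1 (0.56) were highest, and EIF2AK2 was lowest with a ratio of -0.30.

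The genes that build ribosomes and the mitochondrial ribosome had higher medians than the elongation and initiation factor lists. Of 25 ribosome assembly genes 22 were above 0, 5 were higher by at least 0.5 and the median was 0.34. NOP10, a protein of the H/ACA particles that modify ribosomal RNA, had the highest ratio (13.3 and 27.3 CPM, 1.04), followed by EBNA1BP2 (0.61). Of 13 RNA polymerase I genes 9 were above 0 and the median was 0.17, with TAF1C at 0.83 and POLR1H at 0.50. Of 65 mitochondrial ribosomal protein genes 60 were above 0, 10 were higher by at least 0.5 and none was lower by 0.5, with a median of 0.30 and MRPL20 (12.2 and 23.6 CPM, 0.955) and MRPL41 (0.74) at the top. Against 8.29% of all genes that passed 0.5 upward, these 10 of 65 and 5 of 25 are given as counts without a test. Over all barcodes the medians were 0.28 for ribosome assembly, 0.10 for RNA polymerase I and 0.18 for the mitochondrial ribosome. The class shares of the fresh library were not applied to these lists.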

How the data were processed

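For each library the authors deposited UMI counts per gene and barcode, made with Cell Ranger 4.0.0 (STAR 2.5.1b) on Sscrofa11.1 with Ensembl genes, not normalized. Cells were kept by the study's maxima. Doublets were treated only by these maxima and the sort. Members and gene lists were chosen with earlier results of these data known. Counts were summed over cells and scaled with edgeR 4.0.16 TMM factors, and genes with at least 200 UMIs over both libraries were compared. Log2 ratios carry exact conditional binomial 95% intervals, shares exact binomial ones. The ratio and interval code was tested on simulated data. Seurat 5.3.0 integrated the libraries with 2000 features, none of them a member, and 30 dimensions, and clustered at resolution 0.8. A marker counted as raised when found in at least 10% of a cluster's cells and at least 2-fold over the median of the other clusters. The naming rule, with at least 3 raised markers, and the joining of the epidermal lists were set after the first clusters were seen. The named members were RPS20, RPSA, the 5 lowest and 5 highest ratios, the 5 highest levels and the 5 most variable parts between classes. Also named were up to 5 with 1 sign in every class, paralogs with their parents and members at 0. From the other lists came the 2 genes with the largest ratios in size, and some further genes. Some members that this rule names are not reported here. Start sites and copies came from RefSeq and BLAST 2.17.0. Protein sequences were not used here.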

Additional observations from a re-analysis of the deposited data

How the results depend on the processing

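The share ratio of 1.08 stayed above 1 under every alternative listed here, but its direction differed between ranges of UMIs per cell. It was 1.056 over all barcodes, 1.115 without the mitochondrial limit, 1.093 without the 20 highest other genes, 1.092 from the median cells, 1.024 with the class shares of the fresh library, 1.035 with classes weighted equally and 1.115 from the mean of thinned cells. Of alternatives chosen after seeing the data, adding 7 genes that only the reference table names as ribosomal gave 1.080, leaving out the unnamed cluster 1.077 and leaving out cells under 1% 1.042. The members' median log2 ratio of 0.20 was 0.16 with total UMIs, 0.17 with the total of other genes, 0.11 over all barcodes, 0.24 without the mitochondrial limit, 0.10 with the fresh class shares and 0.17 with the 7 genes added. The fold between the extreme classes was 3.29 from median cells. The counts of members past 0.5 stayed between 2 and 4. The share was higher in 5 of 9 classes from median cells and in 6 of 9 otherwise. Mast-like, endothelial-like and Langerhans or other dendritic-like cells changed direction between pooled and median-cell shares. Over 25 named members and 4 alternatives the largest move was 0.13 on the log2 scale, and 1 value changed sign, that of RPL26, from 0.05 to -0.0041 over all barcodes. Most of these alternatives could move little. Total UMIs and DESeq2 size factors shift every member by the same amount, and the other left out 1 cell, which held at most 0.65% of a tested member's UMIs. The fresh class shares, which lowered the members' median to 0.10, were not applied to single members. No paired analysis was possible because each condition is 1 library. Depth limits most the mast-like class and the paralogs RPL3L and RPL10L.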

Other observations

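The gene table lists 7 further ribosomal protein genes only by identifier, and the reference table names them. RPS2 had 1997 CPM when fresh and 2286 CPM when cryopreserved (log2 ratio 0.20), RPL28 1982 and 2101 CPM (0.08) and RPS15A 1060 and 1157 CPM (0.13). RPL14 had a ratio of 0.15 and RPS24 of 0.03. RPL23A was the only one of them below 0, with 370 and 263 CPM (-0.49, interval -0.53 to -0.45).

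Mitochondrial mRNAs, which the members' denominator includes, also moved unequally: ND3 had 839 CPM when fresh and 167 CPM when cryopreserved (log2 ratio -2.33), COX3 6674 and 3799 CPM (-0.81), ND1 1038 and 1453 CPM (0.49) and CYTB 3378 and 3279 CPM (-0.04).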
